A study of Mus musculus with 6 samples.

Results

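Aminoacyl-tRNA synthetases are the enzymes that join each amino acid to its transfer RNA. Their transcripts were followed in TM3 cells that overexpressed A20 and in control TM3 cells. The genes were taken by symbol from the protein-coding genes of the deposited count table, as an amino-acid letter followed by "ars", with or without a 2, together with Farsa, Farsb, Fars2 and Eprs. This gave 37 of the 54532 genes in the table, of which 20 carry no 2 in the symbol and encode cytosolic enzymes and 17 carry a 2 and encode mitochondrial enzymes. The rule read symbol and biotype and no measured value, but it was set with earlier results of these data known.

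A synthetase activates its amino acid with ATP and transfers it to the matching transfer RNA, and each protein made by the cell depends on that supply. Cytosolic enzymes serve the ribosomes of the cytoplasm, some of them bound together in a multi-synthetase complex, while the mitochondrial enzymes are encoded in the nucleus and serve the few proteins made inside the organelle. Gars and Kars have no partner with a 2, because each makes the enzyme of both compartments, and mitochondrial glutaminyl-tRNA is made from glutamyl-tRNA by an amidotransferase. Many cytosolic synthetase genes are known targets of ATF4, the transcription factor of the integrated stress response. Leydig cells are the testosterone-producing cells of the testis.

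TM3 is an established mouse Leydig cell line. RNA sequencing gave 3 libraries of TM3 cells overexpressing A20, the ubiquitin-editing inhibitor of NF-kB signalling encoded by Tnfaip3, and 3 libraries of the overexpression control, which the labels give as wild type. All 6 came from the same line, grown in DMEM/F12 medium with fetal bovine and horse serum. The construct, the species of its A20 sequence, whether each group was 1 clone and whether its libraries were separate cultures are not in the labels, so the p-values measure the spread between these libraries, which may be technical.

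Total counts ran from 15097570 to 16917979 in the A20-overexpressing libraries and from 13841287 to 15349354 in the control libraries. A gene without a count could lie at up to 0.177 to 0.217 CPM, a count scaled to the total count of its library, which is the level of 3 counts and covers counting error only. Tnfaip3 had 41.0, 33.7 and 43.6 CPM with A20 overexpression, against 30.9, 11.9 and 15.2 CPM in control replicates 1, 2 and 3, and the groups did not overlap. Its log2 fold change was 1.08 ± 0.30 (SE) with 6 libraries, at an adjusted p of 0.331 by edgeR, and 1.51 ± 0.19 without control replicate 1, at 0.000256. Control replicate 1 stood apart. Its log2 CPM over 13350 genes correlated with those of the other 5 libraries at 0.922 to 0.941, while those 5 correlated among themselves at 0.967 to 0.991. The 10 steroidogenic Leydig cell markers summed to 196.8, 238.5 and 229.9 CPM in the A20-overexpressing libraries, against 2315.2, 193.3 and 237.5 CPM in control replicates 1, 2 and 3. Scarb1 made up most of the sum in the other 5 libraries, at 170.1 to 209.5 CPM, and was lowest in control replicate 1 at 106.1 CPM. Cyp11a1, Hsd3b1 and Lhcgr stood at 851.2, 532.1 and 7.36 CPM in control replicate 1, were at 0 in the 3 A20-overexpressing libraries and did not exceed 0.144 CPM in control replicates 2 and 3. Cyp17a1 and Hsd3b6 were at 0 in those 5 libraries and at 1.56 and 0.977 CPM in control replicate 1. Summed Sertoli cell markers (225.1 CPM) and endothelial markers (36.7 CPM) were also highest in that library, against at most 31.3 and 4.85 CPM elsewhere, and most of each came from 1 gene, Clu at 221.1 CPM and Cdh5 at 35.1 CPM. The endothelial marker Egfl7 was lowest there, at 1.04 CPM against 3.05 to 4.47 CPM in the others, as was the macrophage marker Cd68, at 3.71 CPM against 19.3 to 38.7 CPM. Sox9, Fshr, Ptprc and Adgre1 were at 0 in all 6. The groups were therefore compared with all 6 libraries and again without control replicate 1. The part of that library's other markers in its synthetase levels was not tested. In bulk RNA, fewer cells of a type and less RNA per cell cannot be told apart.

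The promoters of the genes were read for the letters TGATGNAA, as written or as the reverse complement, which are the core of the composite element bound by ATF4 with a C/EBP partner. RefSeq promoter windows of GRCm38.p6, from 250 bases before to 50 bases after the transcript start, were available for 13 cytosolic and 14 mitochondrial genes. The letters stood in a window of 5 of the 13 cytosolic genes (38.5%) and of 0 of the 14 mitochondrial genes. Of all 32851 single windows, 1304 held them (3.97%). A gene was counted if any of its windows matched, so its share and that of single windows are not on the same basis. Since the cytosolic group holds several known ATF4 targets, the 60 bases around each match are shown, 5′ to 3′ on the gene's strand with the matched letters in capitals.
Gars, chr6:55037945-55038004, plus strand: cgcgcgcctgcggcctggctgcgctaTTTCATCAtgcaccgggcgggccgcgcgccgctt
Aars, upstream match, chr8:111033704-111033763, plus strand: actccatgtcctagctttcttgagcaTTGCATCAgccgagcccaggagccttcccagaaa
Aars, downstream match, chr8:111033825-111033884, plus strand: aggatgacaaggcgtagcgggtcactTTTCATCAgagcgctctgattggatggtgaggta
Iars, chr13:49682111-49682170, plus strand: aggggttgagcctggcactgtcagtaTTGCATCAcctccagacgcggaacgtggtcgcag
Yars, chr4:129189880-129189939, plus strand: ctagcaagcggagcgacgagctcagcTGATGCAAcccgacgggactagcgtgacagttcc
Tars, chr15:11399640-11399699, minus strand: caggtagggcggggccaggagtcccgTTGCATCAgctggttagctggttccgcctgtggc
The first matched base lay at -30 from the start in Gars, at -112 and 10 in Aars, at 8 in Iars, at 4 in Yars and at -15 in Tars. A match is a description of the letters and not a measured binding site.

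The synthetase genes took 0.721, 0.695 and 0.721% of all counts in the A20-overexpressing libraries, against 0.707, 0.65 and 0.637% in control replicates 1, 2 and 3. No member was at 0 in any library, and all 37 passed the expression filter. Per length, in the deposited FPKM averaged over the 6 libraries, the cytosolic genes stood above almost all of the mitochondrial ones. Gars, which makes glycyl-tRNA, was the highest at 204.8 FPKM, followed by the asparaginyl enzyme Nars at 171.2 and the alanyl enzyme Aars at 118.0 FPKM. At the low end of the cytosolic group stood the glutaminyl enzyme Qars at 19.2 FPKM and Farsa, the catalytic subunit of the phenylalanyl enzyme, at 15.3 FPKM. The mitochondrial group began with the leucyl enzyme Lars2 at 18.4 FPKM, between Qars and Farsa. The valyl enzyme Vars2 at 7.97 FPKM and the alanyl enzyme Aars2 at 7.37 FPKM came next, and the prolyl enzyme Pars2 at 1.02 and the methionyl enzyme Mars2 at 0.903 FPKM came last.

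With all 6 libraries, no synthetase gene passed the threshold. The fitted values of the cytosolic genes lay mostly above 0 and close to it. By edgeR's quasi-likelihood test with Benjamini-Hochberg adjustment over 13350 genes, 0 of the 37 had an adjusted p under 0.05, the smallest being 0.397 for Wars2, and 2 genes in all (0.015%) were called, 1 higher and 1 lower (0.00749% each). Among protein-coding genes the share called was 0.00888%. DESeq2, limma-voom and limma-voom with quality weights also called 0 of the 37. At an unadjusted p under 0.05 stood 2 members that were higher, Vars and Wars2, and 1 that was lower, Lars2, against 10% of all genes (4.19% higher and 5.86% lower). The fitted log2 fold change lay above 0 for 18 of the 20 cytosolic genes (90%), with a median of 0.15 and a range from -0.16 to 0.40. It lay above 0 for 10 of the 17 mitochondrial genes (58.8%), with a median of 0.12 and a range from -0.53 to 0.58, and that median was -0.04 without control replicate 2, -0.03 without control replicate 3 and 0.34 without control replicate 1. Over all genes tested, 46% of the values lay above 0 and the median was -0.03, and over protein-coding genes 48.8% did.

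With control replicate 1 left out, few synthetase genes passed the threshold. Among them were the cytosolic tryptophanyl enzyme Wars, higher with A20 overexpression, and the mitochondrial leucyl enzyme Lars2, lower. By edgeR's quasi-likelihood test with Benjamini-Hochberg adjustment over 13658 genes, 3 of 37 had an adjusted p under 0.05 (2 higher and 1 lower) and 34 did not, against 628 genes in all (4.6%, with 1.92% higher and 2.68% lower). The share over protein-coding genes was 4.34%. Whether the synthetase genes were called more often than other genes was not tested. At an unadjusted p under 0.05, 11 members were higher and 1 was lower, against 21.6% of all genes (10.4% higher and 11.2% lower). The fitted log2 fold change lay above 0 for 31 of the 37 (83.8%), against 49.7% of all genes and 52.9% of protein-coding genes. Its median was 0.15 over the cytosolic genes, in which 16 of 20 lay above 0, and 0.34 over the mitochondrial genes, in which 15 of 17 did. The median over all genes tested was 0.

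**Figure D1:**
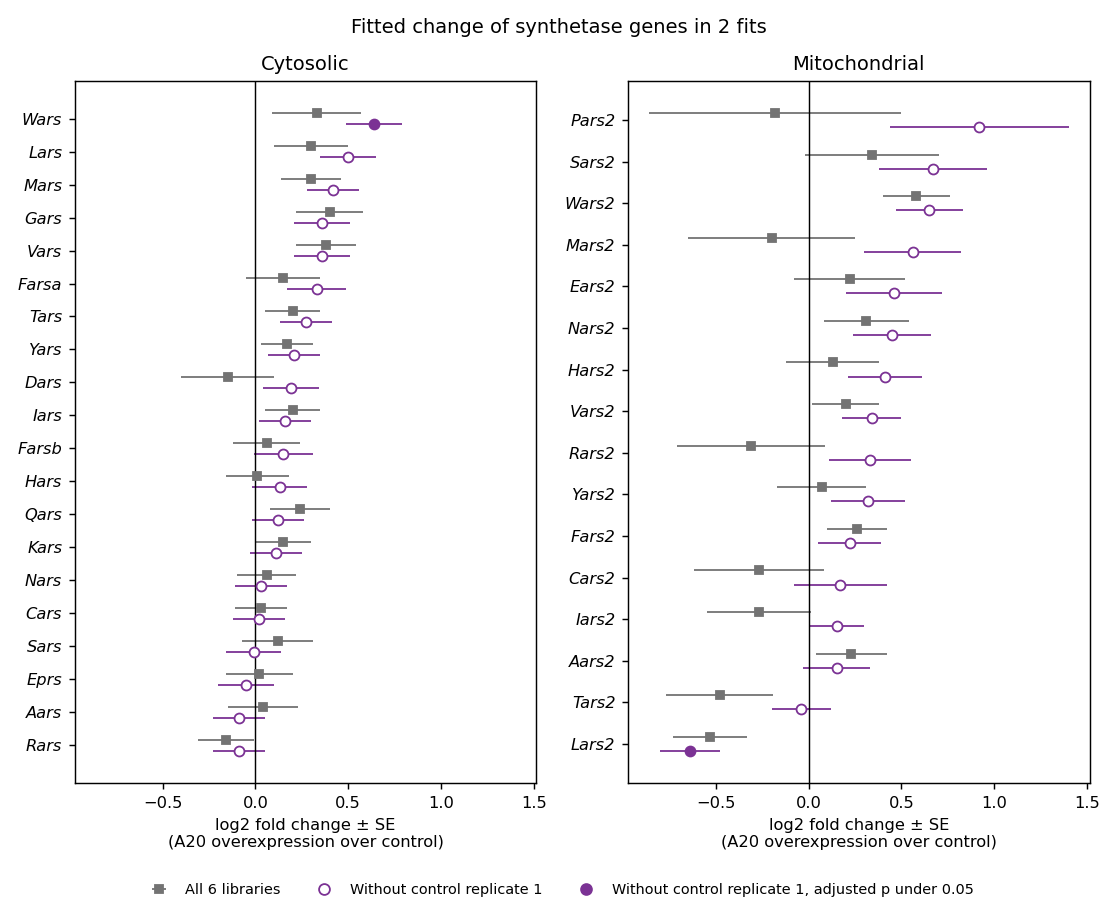
Fitted log2 fold change (x axis, A20 overexpression over control, with its approximate standard error) of the 20 cytosolic genes (left) and 16 mitochondrial genes (right), with all 6 libraries (squares) and without control replicate 1 (circles, filled where the adjusted p was under 0.05). The filled circles are Wars at 0.64 and Lars2 at -0.64, and the 2 fits lie farther apart for mitochondrial genes such as Pars2 and Mars2 than for cytosolic genes such as Vars.

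Summed over the 20 cytosolic genes, transcripts held 6674.0, 6410.3 and 6669.7 CPM in the A20-overexpressing libraries, against 6287.6, 5942.0 and 5832.6 CPM in control replicates 1, 2 and 3. The means were 6584.7 ± 151.0 CPM with A20 overexpression and 6020.7 ± 237.5 CPM in the controls (SD, n = 3 each), and the groups did not overlap with or without control replicate 1. The sum is weighted to the abundant genes, and 4 of the 20 cytosolic genes had CPM ranges that did not overlap between the groups of 3, all 4 higher with A20 overexpression, against 7.62% of all genes. They were Gars, Vars, Kars and Qars. With control replicate 1 left out, 13 of the 20 lay higher without overlap, against 20.7% of all genes.

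Gars, the glycyl enzyme of both compartments, had 740.8, 708.7 and 724.2 CPM with A20 overexpression, against 567.0, 613.0 and 487.9 CPM in control replicates 1, 2 and 3. The lowest A20-overexpressing library lay above the highest control, and the 3 values with A20 overexpression lay closer together than the controls did. Its log2 fold change was 0.40 ± 0.18 (SE) with 6 libraries, at an adjusted p of 0.498 by edgeR, and 0.36 ± 0.15 without control replicate 1, at 0.192. The valyl enzyme Vars stood at 501.4, 513.2 and 509.0 CPM with A20 overexpression, against 423.7, 341.5 and 431.6 CPM in the controls. All 3 A20-overexpressing libraries lay above all 3 controls, and its log2 fold change of 0.38 ± 0.16 had an unadjusted p of 0.0404 and an adjusted p of 0.489 by edgeR. Without control replicate 1 it was 0.36 ± 0.15, at an adjusted p of 0.158.

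The other 2 differed by less. Kars, the lysyl enzyme, stood at 311.3, 281.7 and 304.7 CPM with A20 overexpression, against 281.4, 273.3 and 268.0 CPM in the controls. The lowest A20-overexpressing library and the highest control were nearly equal, and the log2 fold change was 0.15 ± 0.15 with 6 libraries and 0.11 ± 0.14 without control replicate 1. Qars stood at 132.4, 144.2 and 132.5 CPM, against 105.8, 122.0 and 122.5 CPM, with a log2 fold change of 0.24 ± 0.16 and, without control replicate 1, of 0.12 ± 0.14. The gap between the groups was smaller than the range of the controls in Qars, as it was in Gars, Vars and Kars.

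Wars, the tryptophanyl enzyme, is also known as an interferon-gamma inducible gene. It had 169.7, 163.0 and 163.2 CPM with A20 overexpression, against 202.3, 88.6 and 119.9 CPM in control replicates 1, 2 and 3. Control replicate 1 lay above the A20-overexpressing libraries and the other 2 controls lay below them, so that the groups overlapped with 6 libraries (log2 fold change 0.33 ± 0.24, adjusted p 0.672 by edgeR). The log2 fold change without that library was 0.64 ± 0.15, a 1.55-fold rise, at an adjusted p of 0.0215 by edgeR. The call was lost on leaving out A20 replicate 1 (adjusted p 0.097), A20 replicate 2 (0.0858), A20 replicate 3 (0.0944) or control replicate 2 (0.0666) as well.

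The leucyl enzyme Lars and the methionyl enzyme Mars, both of the multi-synthetase complex, had the next values in the cytosolic group without control replicate 1. They were chosen for mention after their values were seen. Lars stood at 311.6, 248.8 and 310.6 CPM with A20 overexpression, against 326.8, 190.2 and 210.0 CPM in the controls. Its log2 fold change was 0.30 ± 0.20 with 6 libraries, at an adjusted p of 0.635 by edgeR, and 0.50 ± 0.15 without control replicate 1, at 0.0598. Mars stood at 232.2, 222.6 and 250.2 CPM, against 246.5, 159.8 and 183.6 CPM, with log2 fold changes of 0.30 ± 0.16 at 0.572 and 0.42 ± 0.14 at 0.091. In both, control replicates 2 and 3 lay below every A20-overexpressing library and control replicate 1 did not. Mars shares 68 exon bases on the opposite strand with Ddit3, which stood at 599.5 to 1369.6 CPM, and the strand setting of the counting is not given in the sources used here.

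At the other end of the cytosolic group without control replicate 1 stood Aars and Rars. Aars, the alanyl enzyme, stood at 1100.4, 1100.0 and 1114.8 CPM with A20 overexpression, against 974.2, 1093.7 and 1201.8 CPM in control replicates 1, 2 and 3. The controls lay on both sides of the A20-overexpressing libraries, and the log2 fold change was 0.04 ± 0.19 with 6 libraries and -0.09 ± 0.14 without control replicate 1. Rars, the arginyl enzyme, stood at 123.8, 106.4 and 111.3 CPM, against 152.7, 125.3 and 111.2 CPM, with log2 fold changes of -0.16 ± 0.15 and -0.09 ± 0.14. The groups overlapped in both genes. The remaining cytosolic genes, from Nars to Farsa, had log2 fold changes from -0.15 (Dars) to 0.20 (Iars and Tars) with 6 libraries and from -0.05 (Eprs) to 0.33 (Farsa) without control replicate 1.

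**Figure D2:**
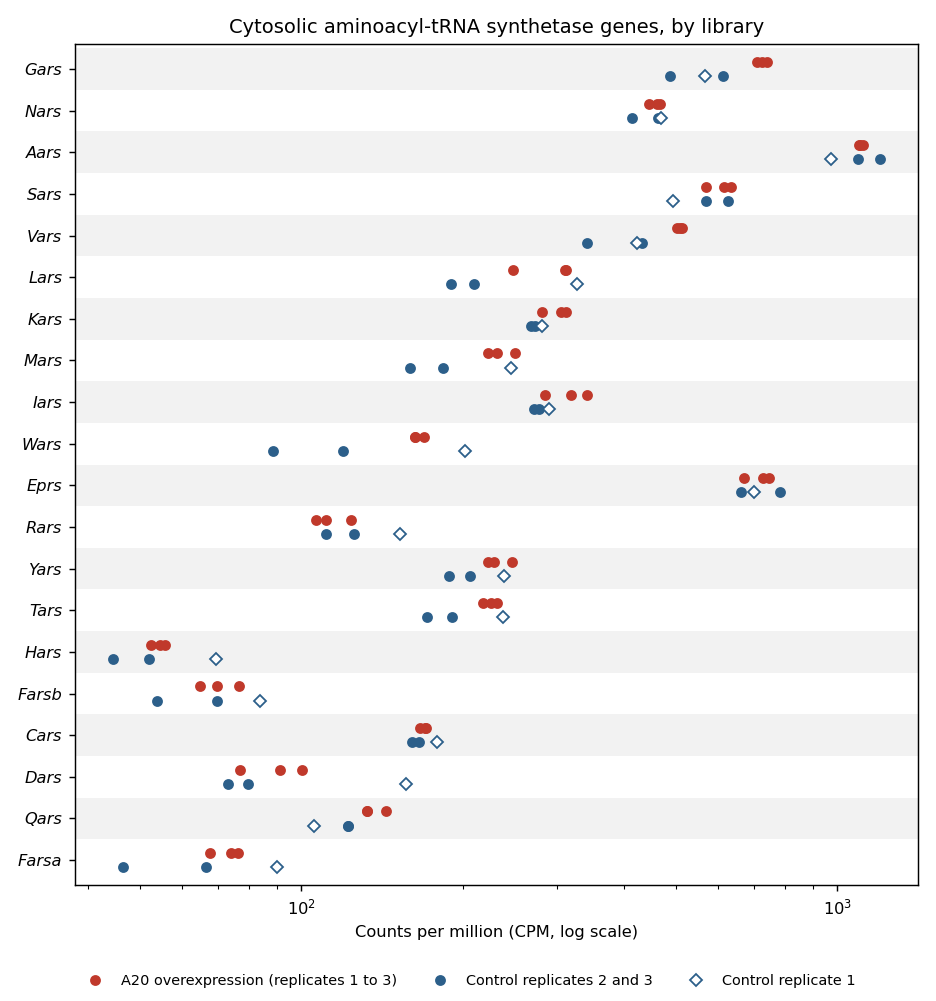
CPM (x axis, log scale) of the 20 cytosolic genes in each library, with A20 overexpression in red above the controls in blue and control replicate 1 as an open diamond. For Gars and Vars all red points lie to the right of all blue ones, while for Wars and Lars the open diamond lies to the right of the red points and the 2 filled blue points lie to their left.

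The cytosolic genes were also read by structural class and by complex. Class I enzymes share a Rossmann-type catalytic fold and class II enzymes an unrelated fold built on antiparallel strands, and Eprs joins one of each. With 6 libraries the median log2 fold change was 0.24 over the 9 class I genes and 0.09 over the 10 class II genes, and without control replicate 1 it was 0.21 and 0.14. The 8 genes of the multi-synthetase complex had a median of 0.17 with 6 libraries and 0.14 without control replicate 1, against 0.14 and 0.18 for the 12 cytosolic genes outside it. None of these differences was tested. The complex is held together by the scaffold proteins of Aimp1, Aimp2 and Eef1e1. In either comparison 0 of these 3 passed the test, against 0.015% and 4.6% of all genes. Of these, Aimp2 had the smallest unadjusted p, at 27.1, 20.4 and 24.3 CPM with A20 overexpression, against 21.3, 15.3 and 19.7 CPM in the controls. Its log2 fold change was 0.38 ± 0.19 with 6 libraries, at an adjusted p of 0.545 by edgeR, and 0.42 ± 0.19 without control replicate 1, at an unadjusted p of 0.0457 and an adjusted p of 0.221.

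The 17 mitochondrial genes summed to 532.7, 537.5 and 543.8 CPM in the A20-overexpressing libraries, against 784.0, 557.1 and 534.7 CPM in control replicates 1, 2 and 3. The A20-overexpressing libraries lay close together, control replicate 1 lay far above, and control replicates 2 and 3 lay on both sides of the highest A20-overexpressing library. Lars2 made up the largest share of each sum. Of the 17 genes, the CPM ranges of 2 (Fars2 and Wars2) lay higher with A20 overexpression without overlap, and that of 1 (Lars2) lay lower, against 7.62% and 9.27% of all genes. Among the 5 other libraries, 9 lay higher and 1 lower, against 20.7% and 17.2% of all genes (37.9% in all).

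Lars2 had 166.3, 170.1 and 161.7 CPM with A20 overexpression, against 225.3, 293.0 and 209.4 CPM in control replicates 1, 2 and 3. All 3 A20-overexpressing libraries lay below all 3 controls, and control replicate 2 was the highest. With 6 libraries the log2 fold change was -0.53 ± 0.20, at an unadjusted p of 0.0244 and an adjusted p of 0.448 by edgeR. Leaving out control replicate 1 gave -0.64 ± 0.16, a 1.56-fold fall, at an adjusted p of 0.0305 by edgeR. Without control replicate 2 as well it was -0.32 at 0.21, and the call was also lost without A20 replicate 1 (0.128), 2 (0.109) or 3 (0.154). No other gene of the table overlaps Lars2, which spans chr9:123366927-123462666 on the plus strand of GRCm38.

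Wars2, the mitochondrial tryptophanyl enzyme, had 24.7, 24.7 and 25.4 CPM with A20 overexpression, against 20.1, 15.3 and 15.7 CPM in control replicates 1, 2 and 3. It did not overlap between the groups, and the A20-overexpressing libraries were almost equal. Its log2 fold change was 0.58 ± 0.18 with 6 libraries, at an adjusted p of 0.397 by edgeR, and 0.65 ± 0.18 without control replicate 1, at 0.0506. Fars2, the phenylalanyl enzyme, stood at 29.6, 31.3 and 27.9 CPM, against 26.3, 24.1 and 25.4 CPM, with log2 fold changes of 0.26 ± 0.16 and 0.22 ± 0.17. The lowest of its A20-overexpressing libraries lay just above the highest control. Fars2 shares 501 exon bases on the opposite strand with Nrn1, which stood at 69.9 CPM in control replicate 1 and at 0 in the other 5 libraries.

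Control replicate 1 was the highest of the 6 libraries for 11 of the 17 mitochondrial genes and for 10 of the 20 cytosolic genes, against 40.7% of all genes. It was the lowest for 0 mitochondrial and 3 cytosolic genes (Aars, Sars and Qars), against 21.7% of all genes. In 4 genes, all mitochondrial, it stood over 2-fold above the highest of the other 5, against 7.03% of all genes.

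These were the threonyl enzyme Tars2, the arginyl enzyme Rars2, Pars2 and Mars2. Tars2 stood at 37.0, 44.8 and 35.9 CPM with A20 overexpression, against 92.9, 36.9 and 42.3 CPM in control replicates 1, 2 and 3, and Rars2 stood at 16.7, 15.8 and 17.7 CPM, against 39.2, 10.2 and 15.9 CPM. Pars2 stood at 3.13, 2.24 and 3.51 CPM, against 7.62, 0.767 and 2.31 CPM, and Mars2 at 9.81, 8.88 and 9.74 CPM, against 22.0, 5.51 and 7.08 CPM. Once that library was left out, the A20-overexpressing libraries lay above the 2 controls in Mars2 and overlapped them in the other 3.

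The fitted log2 fold change followed that library. It was -0.48 ± 0.29 in Tars2, -0.31 ± 0.40 in Rars2, -0.18 ± 0.68 in Pars2 and -0.20 ± 0.45 in Mars2 with 6 libraries. Without control replicate 1 it was -0.04 ± 0.16, 0.33 ± 0.22, 0.92 ± 0.48 and 0.56 ± 0.26 in the same genes. None of these 4 passed the test in either comparison, the adjusted p of Pars2 without control replicate 1 being 0.282 by edgeR. The seryl enzyme Sars2 stood at 8.10, 11.2 and 11.5 CPM with A20 overexpression, against 12.6, 4.53 and 8.16 CPM in the controls, with log2 fold changes of 0.34 ± 0.36 and 0.67 ± 0.29. The groups overlapped in both comparisons. The other 8 mitochondrial genes, Vars2, Aars2, Yars2, Iars2, Hars2, Nars2, Ears2 and Cars2, ran from -0.27 (Iars2 and Cars2) to 0.31 (Nars2) with 6 libraries and from 0.15 (Aars2 and Iars2) to 0.46 (Ears2) without control replicate 1.

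**Figure D3:**
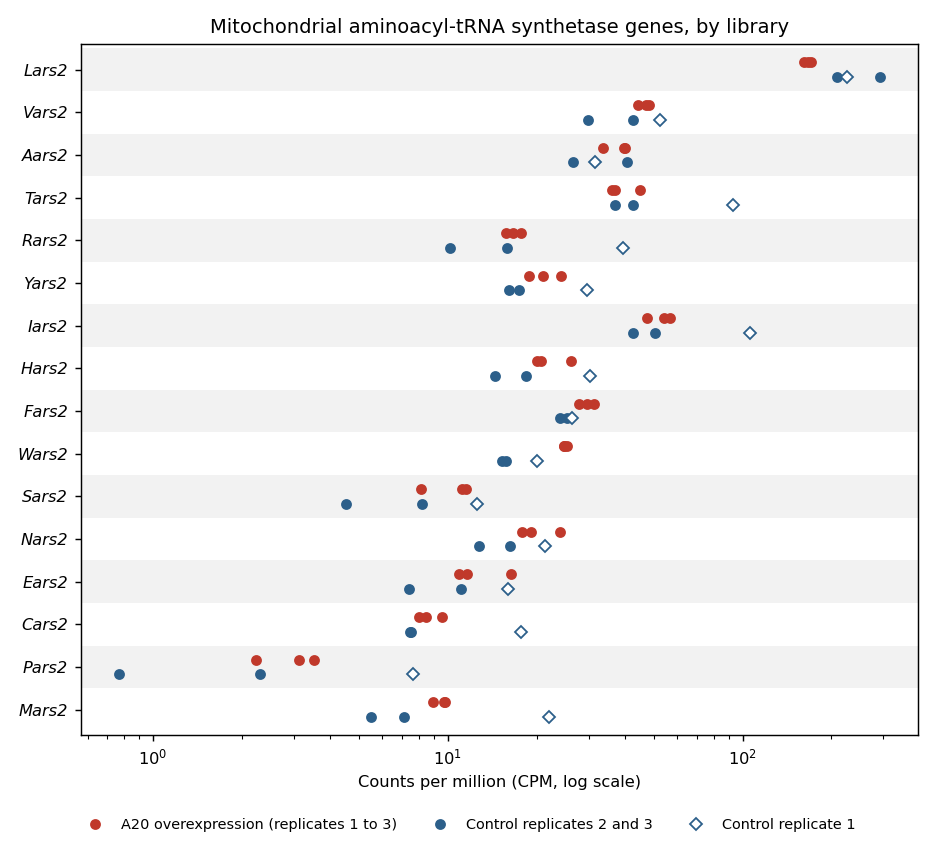
CPM (x axis, log scale) of 16 mitochondrial genes in each library, with A20 overexpression in red above the controls in blue and control replicate 1 as an open diamond. The open diamond is the rightmost point for 10 of the 16 genes, Lars2 is the gene whose red points all lie to the left of its blue ones, and Wars2 has its 3 red points between 24.7 and 25.4 to the right of all controls.

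The 12 cytosolic synthetase genes described as ATF4 targets had fitted log2 fold changes above 0 in 12 of 12 cases with 6 libraries, against 46% of all genes, from 0.02 to 0.40 with a median of 0.18, and 0 of 12 were called (0.015% of all genes). On leaving out control replicate 1, 9 of 12 lay above 0, against 49.7% of all genes, the median was again 0.18, and 1 (Wars) was called, against 4.6% of all genes. The 8 cytosolic genes outside that list had medians of 0.10 and 0.14. Of these 8, 6 lay above 0 with 6 libraries (75%) and 7 without control replicate 1 (87.5%). The 12 cytosolic genes outside the multi-synthetase complex, which share members with the ATF4 list, also lay above 0 in 12 of 12 cases with 6 libraries. Without control replicate 1, 10 of them did. Of the 5 genes with TGATGNAA in the promoter window, whose sequences are printed above, Gars had the highest value at 0.40 and Aars the lowest at 0.04 with 6 libraries, with Iars at 0.20, Yars at 0.17 and Tars at 0.20, and none was called in either comparison. Wars was not matched to a window.

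Of 32 other ATF4 targets listed, 31 passed the expression filter. By edgeR with Benjamini-Hochberg adjustment, 0 were called with 6 libraries, against 0.015% of all genes. At an unadjusted p under 0.05, 8 were higher and 1 lower in that comparison, against 4.19% and 5.86% of all genes. With control replicate 1 left out, 3 rose and 1 fell, against 1.92% and 2.68% of all genes. At an unadjusted p under 0.05, 14 were then higher and 2 lower, against 10.4% and 11.2% of all genes. Ddit3, the most abundant of the list, was among the lower ones, at -0.36 ± 0.16 and an adjusted p of 0.214 by edgeR. With 6 libraries it had -0.03 ± 0.35. On leaving out a further library, the number called was 2 without A20 replicate 1, 3 without A20 replicate 2, 0 without A20 replicate 3, 4 without control replicate 2 and 14 without control replicate 3, and limma-trend with a pseudocount of 0.1 called 0. Trib3, a pseudokinase that restrains the same stress response, stood at 376.0, 424.9 and 479.7 CPM with A20 overexpression, against 303.1, 226.5 and 251.3 CPM in control replicates 1, 2 and 3. Its groups did not overlap, and its log2 fold change was 0.75 ± 0.17 with 6 libraries, at an adjusted p of 0.242 by edgeR, and 0.80 ± 0.15 without control replicate 1, at 0.00791.

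The amino acid transporter genes Slc7a5 and Slc1a4 rose without control replicate 1, by log2 fold changes of 0.68 ± 0.16 and 0.70 ± 0.14 at adjusted p values of 0.0217 and 0.011 by edgeR, and the stress-induced chromatin protein gene Nupr1 had -0.55 ± 0.15 at 0.0448. With 6 libraries the same genes had 0.50 ± 0.20 at 0.487, 0.58 ± 0.16 at 0.331 and -0.74 ± 0.20 at 0.327. In CPM, Slc7a5 stood at 416.1, 319.9 and 424.8 with A20 overexpression, against 375.1, 213.3 and 259.5 in the controls. Slc1a4 stood at 123.7, 124.2 and 144.4 CPM, against 111.9, 77.3 and 79.8 CPM, and Nupr1 at 73.8, 96.1 and 76.8 CPM, against 189.5, 115.8 and 119.4 CPM. Slc1a4 and Nupr1 did not overlap between the groups, and Slc7a5 overlapped through control replicate 1. Atf4 itself had log2 fold changes of 0.12 ± 0.18 and 0.08 ± 0.15.

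Since Wars is also interferon-gamma inducible, 18 other genes of that response were listed, of which 12 passed the filter. None was called with 6 libraries by edgeR (0.015% of all genes), where 2 were lower at an unadjusted p under 0.05 (5.86% of all genes). Without control replicate 1, 2 fell (2.68% of all genes) and 10 did not pass. At an unadjusted p under 0.05 stood 1 higher and 2 lower, against 10.4% and 11.2% of all genes. Both calls were lost on leaving out A20 replicate 1, 2 or 3 or control replicate 2 as well. B2m, which encodes the light chain of class I MHC molecules, stood at 206.0, 202.9 and 165.7 CPM with A20 overexpression, against 417.0, 342.7 and 250.8 CPM in control replicates 1, 2 and 3, with log2 fold changes of -0.78 ± 0.20 with 6 libraries, at an adjusted p of 0.31 by edgeR, and -0.67 ± 0.17 without control replicate 1, at 0.0298. Psme2, a proteasome activator subunit, stood at 32.8, 29.4 and 30.3 CPM, against 70.8, 45.1 and 43.5 CPM, with -0.74 ± 0.19 at 0.274 and -0.56 ± 0.15 at 0.0481. Neither overlapped between the groups. Psme1, which encodes the partner of the Psme2 subunit, was the member that lay higher at an unadjusted p of 0.0448 without control replicate 1, with 0.32 ± 0.15.

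**Figure D4:**
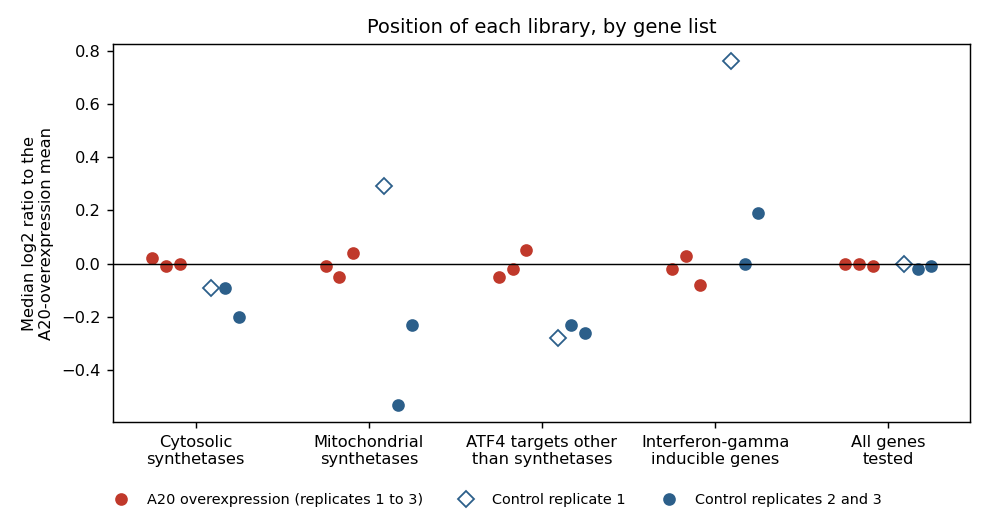
Median over each gene list of the log2 ratio of a library to the mean of the A20-overexpressing libraries (y axis), with those 3 libraries in red, which enter that mean, and the controls in blue, control replicate 1 being the open diamond. For cytosolic synthetases the controls lie at -0.09, -0.09 and -0.20, for mitochondrial synthetases at 0.29, -0.53 and -0.23, for other ATF4 targets at -0.28, -0.23 and -0.26 and for interferon-gamma inducible genes at 0.76, 0 and 0.19 (replicates 1, 2 and 3).

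The plot of list medians by library showed the cytosolic synthetases and the other ATF4 targets lower in each of the 3 control libraries, with medians between -0.01 and 0.02 and between -0.05 and 0.05 in the A20-overexpressing libraries. For the mitochondrial synthetases, control replicate 1 lay on the opposite side of the A20-overexpressing libraries from control replicates 2 and 3. All genes tested lay within 0.02 of 0 in every library.

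Accessory genes of transfer RNA charging were listed as well. They included the export receptor Xpot, the CCA-adding enzyme Trnt1, the amidotransferase subunits Gatb, Gatc and Qrsl1 and editing factors, 15 genes in all. Of these, 0 passed the test in either comparison, against 0.015% and 4.6% of all genes. At an unadjusted p under 0.05 stood 0 with 6 libraries (10% of all genes) and 5, all higher, without control replicate 1 (10.4% of all genes higher). Without control replicate 1, Elac2, which trims the 3′ end of precursor transfer RNAs, had the smallest p. It stood at 33.0, 34.6 and 38.7 CPM with A20 overexpression, against 38.0, 25.4 and 24.5 CPM in the controls. Its log2 fold change was 0.31 ± 0.19 with 6 libraries, at an adjusted p of 0.607 by edgeR, and 0.47 ± 0.17 without control replicate 1, at 0.113. With 6 libraries Pstk had the smallest p and was lower, at 18.3, 19.0 and 17.2 CPM, against 25.1, 22.4 and 22.1 CPM. Its groups did not overlap, and 9.27% of all genes lay lower without overlap. The log2 fold change of Pstk was -0.32 ± 0.18, at an adjusted p of 0.572 by edgeR, and -0.33 ± 0.18 without control replicate 1, at 0.311.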

How the data were processed

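Whole-number counts per gene were used as deposited by the authors, with gene symbol, position, length and biotype. The deposited FPKM values equal the count divided by gene length and by a library size scaled by the authors, to within a relative deviation of 5.1e-15, and served for levels between genes and for alternatives. The genome build was GRCm38 (mm10), per the submitters' processing notes. The aligner, counter and strand setting are not given in the sources used here. Of the 37 members, 34 have the coordinates and strand of GENCODE M21, and 14 share exon bases with a gene on the opposite strand, so reads of the overlap cannot be told apart if the counting did not use strand. Aars also shares 1326 of its 9282 exon bases with Exosc6 on the same strand, where strand could not separate the reads. Exosc6 was at 0 CPM in all 6 libraries. How reads of shared bases were assigned is not given, so that 0 need not mean that Exosc6 had no transcripts.

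Groups were compared in R 4.3.3 by the quasi-likelihood test of edgeR 4.0.16 (TMM factors, filterByExpr by group, robust fitting, group as the only term), with Benjamini-Hochberg adjustment over every gene kept and 0.05 as threshold. CPM uses the total count of a library. Fold changes are A20 overexpression over control, and the standard error is the fold change divided by the square root of F. The scripts were tested on simulated data. Promoter windows came from RefSeq, with 27 of 37 members matched by symbol or synonym.

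The members, lists and alternatives were chosen with earlier results of these data known. Named with values are members called in either comparison, the 3 largest and 3 smallest fold changes of each, members whose groups did not overlap with 6 libraries, the highest and lowest FPKM levels and members over 2-fold apart in control replicate 1. The values of 1 member, which is counted in the group totals, are not reported here. Of the other lists, called genes or the smallest p are named. Alternatives were other normalizations and filters, DESeq2 1.42.0, limma 3.58.1 (voom and trend on log2 FPKM with pseudocounts of 1 and 0.1), a replicate block and leaving out each library. Quality weights and protein-coding genes alone were added after the data were seen.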

Additional observations from a re-analysis of the deposited data

How the results depend on the processing

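The number of synthetase genes called with 6 libraries was 0 under every setting run except without control replicate 1, so that leaving out 1 library gave 0 to 3. After leaving out that library it was 3, and it became 5 with no filter on low counts, 6 with DESeq2, 0 with limma-trend at either pseudocount, and 0 to 11 on leaving out a further library (0 without A20 replicate 1 or 3, 1 without A20 replicate 2, 2 without control replicate 2 and 11 without control replicate 3). Where 1 control remained, its spread is assumed to be that of the A20-overexpressing libraries. Wars2 passed with no filter (adjusted p 0.0318), with DESeq2 (0.027) and without control replicate 3 (0.0438). The cause of these changes was not tested.

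Over all genes, the 2 calls with 6 libraries became 0 with upper-quartile factors, library size alone, limma-voom, limma-trend or a fit without robust estimation, 23 with no filter, 183 with DESeq2, 407 with quality weights and 0 to 628 on leaving out a library. In the comparison without control replicate 1, the 628 became 1173 with no filter, 235 and 177 with limma-trend at pseudocounts of 1 and 0.1, and 142 to 2423 on leaving out a further library. With no filter the median of all genes moved to -0.16 with 6 libraries.

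For the other ATF4 targets, 0 calls with 6 libraries became 1 with DESeq2, 4 with quality weights and 0 to 4 on leaving out a library. In that comparison without control replicate 1, their 4 became 7 with no filter, 2 and 0 with limma-trend at pseudocounts of 1 and 0.1, and 0 to 14 on leaving out a further library. For the interferon-gamma list, 0 became 1 with DESeq2 and with quality weights and 0 to 2 on leaving out a library. Without control replicate 1, its 2 became 1 with the replicate block, no filter, upper-quartile factors, quality weights, library size alone or a fit without robust estimation, 0 with limma-trend, and 0 to 2 on leaving out a further library. The accessory list ran from 0 to 1, the cytosolic median from 0.09 to 0.20 and the mitochondrial median from 0.23 to 0.55 in the same comparison. The number of the 20 cytosolic genes above 0 moved as well. With 6 libraries it was 15 with library size alone or without control replicate 3. Without control replicate 1 it was 14 with protein-coding genes alone. On leaving out a further library it ran from 12 (control replicate 3) to 19 (control replicate 2).

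Among the genes named for a call, a largest or smallest fold change or groups that did not overlap, directions turned with 6 libraries for Rars2 (0.15 with quality weights, -0.61 to 0.33 on leaving out a library), Aars (-0.07 with quality weights, -0.09 to 0.12) and Pars2 (0.23 with limma-voom, 0.02 and 0.23 with limma-trend at pseudocounts of 1 and 0.1, 0.25 with the replicate block, 0.67 with quality weights, -0.63 to 0.92). Without control replicate 1 they turned for Tars2 (-0.16 to 0.02) and Rars (-0.22 to 0.05). Of the remaining genes, leaving out control replicate 1 gave 0.56 in place of -0.20 for Mars2, 0.15 in place of -0.27 for Iars2, 0.17 in place of -0.27 for Cars2, 0.19 in place of -0.15 for Dars, -0.01 in place of 0.12 for Sars and -0.05 in place of 0.02 for Eprs.

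The labels number the replicates but state no pairing, and the numbers were not taken to pair the libraries. Deviations from the group means correlated at 0.04, 0.12 and -0.05 between same-numbered libraries and at -0.19 to 0.17 between others. The control mean includes control replicate 1, which stood apart, so these values cannot decide whether the libraries were paired. With the replicate as a block, 0 synthetase genes were called with 6 libraries and 3 without control replicate 1 (adjusted p 0.0378 for Lars2 and 0.0283 for Wars).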

Other observations

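Among amino acids with an enzyme in each compartment, the 2 genes did not always lie on the same side. These pairs were chosen after their values were seen, and the differences within a pair were not tested. For tryptophan, the log2 fold changes without control replicate 1 were 0.64 ± 0.15 for Wars and 0.65 ± 0.18 for Wars2. For leucine they were 0.50 ± 0.15 for Lars and -0.64 ± 0.16 for Lars2. The histidine genes Hars and Hars2 lie head to head on opposite strands and share 195 exon bases, and had values of 0.13 ± 0.15 and 0.41 ± 0.20.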
